A study of Mus musculus with 8 samples.

Results

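Mechanosensitive ion channels other than Piezo1 and Piezo2 were examined in sorted nuclei of the adult mouse retina. The 9 genes were taken by symbol, Tmem63a, Tmem63b, Tmem63c, Trpv4, Trpc1, Pkd2, Kcnk2, Kcnk4 and Kcnk10, out of 33696 genes counted, and the rule used no measured value. Single-nucleus RNA sequencing (snRNA-seq) had been performed on 8 libraries at postnatal day 120, each a pool of 6 retinae from which nuclei positive for RBPMS and NeuN were sorted, a selection for retinal ganglion cells (RGCs). The 4 control libraries (replicates 1 to 4) came from Piezo2f/f mice, which carry floxed Piezo2 alleles and no Cre. The 4 cKO libraries (replicates 10 to 13) came from Olig2-cre;Piezo2f/f mice, in which Cre is expressed from the Olig2 locus and which therefore keep a single functional Olig2 copy. Both groups shared the floxed alleles, so no library had wild-type Piezo2. Because each library was a pool, the spread between libraries is that between pools and not between animals.

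Mechanosensitive channels open when force is applied to the membrane or to the structures it is tied to. Members of the TMEM63 family are relatives of the plant OSCA channels and conduct cations under membrane stretch. TRPV4 is a calcium-permeable channel opened by cell swelling, warmth and lipids, TRPC1 is a canonical TRP subunit that forms channels together with other TRPC proteins, and PKD2 (polycystin-2) is a cation channel of primary cilia and the endoplasmic reticulum. KCNK2 (TREK-1), KCNK10 (TREK-2) and KCNK4 (TRAAK) are potassium channels with a pair of pore domains in each subunit; they carry a background potassium current that stretch and polyunsaturated fatty acids increase, so that their opening dampens excitability where the cation channels would raise it. In the retina such channels have been studied for their part in the response of ganglion cells and Müller glia to swelling and to raised eye pressure.

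The potassium channel genes and the TMEM63 genes were compared in sequence. Over aligned coding bases of GRCm39 (GENCODE gene models), Kcnk2 and Kcnk10 shared 68.1%, Kcnk10 and Kcnk4 60.5%, and Kcnk2 and Kcnk4 59.8%. In the TMEM63 family the shared part was 67.2% for Tmem63a and Tmem63b, 63.1% for Tmem63b and Tmem63c, and 60.7% for Tmem63a and Tmem63c. The stretch below is the second pore loop of each potassium channel, shown because it holds the filter that makes all of them potassium channels, while their levels differed between cell classes. Capitals mark the 5 codons of the selectivity filter, the part of the pore that selects potassium.
Kcnk2: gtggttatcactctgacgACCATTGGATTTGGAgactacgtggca
Kcnk10: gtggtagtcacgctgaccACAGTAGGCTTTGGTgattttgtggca
Kcnk4: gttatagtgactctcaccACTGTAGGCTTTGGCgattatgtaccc
Each lies in coding exon sequence on the minus strand, in exon 5 of the transcript used, at chr1:188988766-188988810 for Kcnk2, chr12:98406852-98406896 for Kcnk10 and chr19:6904987-6905031 for Kcnk4. Of the 45 bases, 33 were the same in Kcnk2 and Kcnk10, 34 in Kcnk10 and Kcnk4, and 28 in Kcnk2 and Kcnk4.

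On GRCm39, Tmem63a spans chr1:180769879-180804358, Tmem63b chr17:45971085-45997839, Tmem63c chr12:87068114-87138600, Trpv4 chr5:114760209-114796914, Trpc1 chr9:95587112-95632428, Pkd2 chr5:104607240-104654573, Kcnk2 chr1:188940126-189134470, Kcnk10 chr12:98395696-98544569 and Kcnk4 chr19:6901334-6911883. Kcnk4 overlaps the gene Catsperz on the same strand over 1415 bases, and Kcnk2 overlaps 2900042K21Rik on the same strand over 653 bases, so their counts are uncertain to that extent. Counts were not divided by gene length, so levels are compared between classes of nuclei and never between genes.

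Library depth ranged from 35697629 to 60088630 UMIs (unique molecular identifiers, each standing for 1 captured RNA molecule). Of 12695972 barcodes, 39627 had at least 1000 UMIs and were taken as nuclei, 2729 to 5902 in a library, with a median of 3754.5 to 8689 UMIs. Classes were gated by UMIs of marker panels, which gave 23973 RGC, 3089 amacrine, 2309 rod, 1926 Müller glia, 1923 bipolar, 577 cone and 526 horizontal nuclei. A further 3672 nuclei passed no gate, and 1593 passed more than 1 gate and were left out as possible doublets. Nuclei that passed the horizontal and amacrine gates alone were kept as horizontal. In all, 183 barcode sequences occurred in more than 1 library. Over all libraries together the marker panel of its own class was the highest in each class, but other panels were present. Horizontal nuclei carried the amacrine panel at 628 to 941 CPM (UMIs per 1000000 UMIs of the summed class) and the rod panel at 238 to 835 CPM over the libraries, beside 907 to 1262 CPM of their own. Amacrine nuclei carried the rod panel at 331 to 802 CPM, beside 1052 to 1274 CPM of their own. Nuclei gated as Müller glia, the radial glia of the retina, had the endothelial marker Flt1 as the second of their leading genes, and nuclei gated as rods in cKO replicate 11 had a rod panel of 25402 CPM against 11262 to 13880 CPM in the other 7 libraries. Free RNA had not been removed from the counts; it made up at most 2.10 to 13.0% of the UMIs of a class and library, an upper limit set by markers of the other classes. Each member is therefore given beside its level in droplets with 101 to 499 UMIs, taken to hold mostly free RNA. That window was chosen after the data were seen, because the one planned, 10 to 100 UMIs, held 1 to 685 UMIs of a member. Each class mean lay on the same side of the level in both windows, except Tmem63a in horizontal cells and cones (3 and 1 UMIs) and Tmem63c in cones.

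The targeted gene does not check the labels here. In RGCs Piezo2 was counted at 16.9, 13.6, 14.2 and 11.6 CPM in control replicates 1 to 4 and at 15.0, 13.3, 12.2 and 8.30 CPM in cKO replicates 10 to 13. The groups overlapped (two-sided exact permutation test, p = 0.371, n = 4 each). Counts of 3′ tags over the whole gene do not show whether a part of it was deleted.

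Among the cation channels, the TMEM63 genes had separate patterns. Tmem63a was found at 8.59 ± 3.83 CPM in Müller glia (SD, n = 8, 44 UMIs), and at no more than 0.983 CPM in any other class, against 1.08 CPM in droplets of free RNA. The 0.983 CPM was that of cones, from 1 UMI in cKO replicate 13. With at least 2000 UMIs a nucleus, rods were at 1.46 CPM. The level of Tmem63a in Müller glia was 8.95, 4.00, 12.4 and 2.32 CPM in control replicates 1 to 4 and 8.90, 13.6, 10.2 and 8.41 CPM in cKO replicates 10 to 13. Every library thus held Tmem63a in Müller glia, though from only 1 UMI in control replicate 4 and 3 UMIs in control replicate 2. From all RGC nuclei came 22 UMIs, at 0.118 ± 0.0541 CPM.

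Tmem63b was present in every class, highest in RGCs at 126 ± 15.4 CPM and lowest in Müller glia at 65.1 ± 16.5 CPM (SD, n = 8). Between them stood amacrine cells at 111 ± 4.11 CPM, rods at 109 ± 13.9 CPM, cones at 105 ± 27.3 CPM, bipolar cells at 93.0 ± 19.4 CPM and horizontal cells at 72.5 ± 17.4 CPM. None of these neighbours in the order differed beyond its spread after adjustment. Free RNA held Tmem63b at 211 CPM, above each of the 7 classes. With the estimated free RNA taken off each sum, Tmem63b stayed lower than in RGCs in each class that had called it.

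Tmem63c separated inner retinal neurons from photoreceptors and glia. Bipolar cells had 79.4 ± 8.46 CPM, amacrine cells 79.3 ± 13.4 CPM, horizontal cells 62.8 ± 11.4 CPM and RGCs 58.2 ± 4.27 CPM, whereas cones had 13.8 ± 8.57 CPM, rods 10.2 ± 7.52 CPM and Müller glia 4.15 ± 2.12 CPM (SD, n = 8). The lowest RGC library, at 54.5 CPM, lay above the highest cone library, at 23.6 CPM, and the highest rod library, at 21.0 CPM. Levels in rods and Müller glia lay below the 13.8 CPM of free RNA, and that in cones was level with it; with at least 2000 UMIs a nucleus, rods were at 18.5 CPM, above it. The step from RGCs to cones was seen in 8 of 8 libraries (exact paired permutation test, p = 0.0078125, the smallest that 8 pairs allow; adjusted p = 0.035156 over 54 steps between neighbours), as was the step from amacrine to horizontal cells (exact paired permutation test, same p and adjusted p).

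Trpv4 was highest in nuclei gated as Müller glia. Its level there was 12.6 ± 5.97 CPM (SD, n = 8; 66 UMIs), with 17.9, 8.0, 18.5 and 4.63 CPM in control replicates 1 to 4 and 12.7, 10.2, 7.65 and 21.0 CPM in cKO replicates 10 to 13. All 8 libraries exceeded their own rod level, the next in the order at 0.898 CPM from 4 UMIs, or 0.569 CPM without control replicate 2 (exact paired permutation test, p = 0.0078125; adjusted p = 0.035156). RGCs had 0.385 ± 0.0994 CPM from 74 UMIs, amacrine cells 0.359 CPM from 8 UMIs and bipolar cells 0.287 CPM from 2 UMIs, all below the 0.929 CPM of free RNA. The amacrine level was 0.206 CPM without control replicate 2, and both bipolar UMIs came from cKO replicate 12. No UMI of Trpv4 was found in 526 horizontal or 577 cone nuclei. A floor of 3 UMIs, set for a count of 0, would be 0.776 CPM over all horizontal and 2.34 CPM over all cone nuclei. Müller glia, at 12.9 CPM over all libraries added together, stood 16.6-fold and 5.51-fold above these floors. The 95% exact Poisson intervals for the counts of 0 reached higher, to 0.954 CPM in horizontal and 2.88 CPM in cone nuclei. Müller glia stood 13.5-fold and 4.48-fold above those upper ends. Such floors and intervals cover counting error only.

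Since Flt1 ranked among the leading genes of the Müller glia gate, it was left out of the endothelial gate. Endothelial markers were then counted in nuclei gated as Müller glia. Flt1 stood at 1767 to 2034 CPM in the 8 libraries, while the other 8 endothelial markers summed to 6.38 to 23.0 CPM and 1 of them, Tie1, was at 0. In the 1864 of 1926 nuclei without a UMI of those other 8 genes, Trpv4 was at 12.7 ± 6.19 CPM from 64 UMIs and Tmem63a at 8.75 ± 3.79 CPM from 43 UMIs (SD, n = 8), close to the values over all nuclei of the gate. The 127 nuclei without a Flt1 UMI held 0 UMIs of Trpv4 and 1 of Tmem63a. Whether nuclei with and without Flt1 differ in either gene was not tested.

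Trpc1 was found in all classes and was highest in rods. Rods had 294, 248, 260 and 337 CPM in control replicates 1 to 4 and 274, 278, 324 and 292 CPM in cKO replicates 10 to 13, a mean of 288 ± 30.3 CPM (SD, n = 8). Müller glia followed at 188 ± 14.5 CPM, then bipolar cells at 137 ± 21.5 CPM, RGCs at 106 ± 4.81 CPM, amacrine cells at 77.6 ± 4.55 CPM, horizontal cells at 62.3 ± 15.8 CPM and cones at 53.9 ± 22.2 CPM. The lowest rod library exceeded the highest Müller glia library, at 215 CPM. Rods over Müller glia, Müller glia over bipolar cells and RGCs over amacrine cells held in 8 of 8 libraries each (exact paired permutation tests, p = 0.0078125; adjusted p = 0.035156). Bipolar cells over RGCs held in 7 of 8 (exact paired permutation test, p = 0.0234; adjusted p = 0.0703). Free RNA held 101.1 CPM of Trpc1, below the rod, Müller glia and bipolar levels and close to that of RGCs.

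Pkd2 had the reverse position in rods, where it was lowest. Rods had 25.1 ± 6.56 CPM (SD, n = 8), with 17.6 to 37.9 CPM over the libraries, below the 32.2 CPM of free RNA. Müller glia were highest at 117 ± 9.89 CPM, followed by RGCs at 89.5 ± 2.88 CPM, cones at 89.3 ± 26.0 CPM, horizontal cells at 84.7 ± 10.7 CPM, amacrine cells at 70.02 ± 5.64 CPM and bipolar cells at 52.9 ± 6.79 CPM. Müller glia exceeded RGCs, and bipolar cells exceeded rods, in 8 of 8 libraries (exact paired permutation tests, p = 0.0078125; adjusted p = 0.035156). RGCs, cones and horizontal cells were neighbours that did not differ beyond their spread.

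Of the potassium channel genes, Kcnk10 and Kcnk2 were highest in RGCs and amacrine cells, and Kcnk4 in RGCs. Kcnk10 stood at 76.0 ± 26.9 CPM in amacrine cells and 65.3 ± 5.58 CPM in RGCs (SD, n = 8), which did not differ beyond their spread (exact paired permutation test, p = 0.266; adjusted p = 0.552). In rods, horizontal cells, Müller glia, bipolar cells and cones it was at 3.74, 2.22, 2.04, 1.99 and 0.673 CPM, all under the 15.5 CPM of free RNA. The horizontal level, from 8 UMIs, was 1.42 CPM without cKO replicate 12. A single UMI was found in all cones. With all libraries added together RGCs were at 65.9 CPM and cones at 0.780 CPM, which puts RGCs 84.5-fold higher with a 95% exact Poisson interval of 15.2 to 3336 for that count. The share of nuclei with a Kcnk10 UMI was 31.5% in RGCs (median 7013 UMIs) and 0.563% in rods (median 1293 UMIs).

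Kcnk2 was likewise highest in amacrine cells and RGCs, with 23.1 ± 6.69 CPM in amacrine cells and 15.8 ± 1.28 CPM in RGCs (SD, n = 8). Rods had 5.01 CPM, Müller glia 3.66 CPM, cones 3.36 CPM and bipolar cells 0.671 CPM, below the 11.0 CPM of free RNA. The cone and bipolar levels came from 4 UMIs each, and without cKO replicate 13 they were 1.60 and 0.321 CPM. Only 1 UMI came from horizontal cells. With all libraries added together these were at 0.259 CPM and RGCs at 15.8 CPM, so RGCs were 60.9-fold higher with a 95% exact Poisson interval of 10.9 to 2407. Amacrine cells exceeded RGCs in 7 of 8 libraries, which did not pass after adjustment (exact paired permutation test, p = 0.0234; adjusted p = 0.0703). The step from RGCs to rods held in 8 of 8 (exact paired permutation test, p = 0.0078125; adjusted p = 0.035156).

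Kcnk4 was highest in RGCs, at 8.14 ± 1.67 CPM (SD, n = 8; 1562 UMIs). Amacrine cells had 4.45 ± 1.04 CPM, lower than RGCs in 8 of 8 libraries (exact paired permutation test, p = 0.0078125, adjusted p = 0.035156). With a stricter gate amacrine cells were at 2.90 CPM, below bipolar cells (3.48 CPM) and rods (3.84 CPM). The other classes had 0.456 to 3.56 CPM. The lowest was that of horizontal cells, from 2 UMIs, and was 0.198 CPM without control replicate 2. Cones had 0.643 CPM from 1 UMI. All of these lay below the 11.8 CPM of free RNA.

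**Figure D1:**
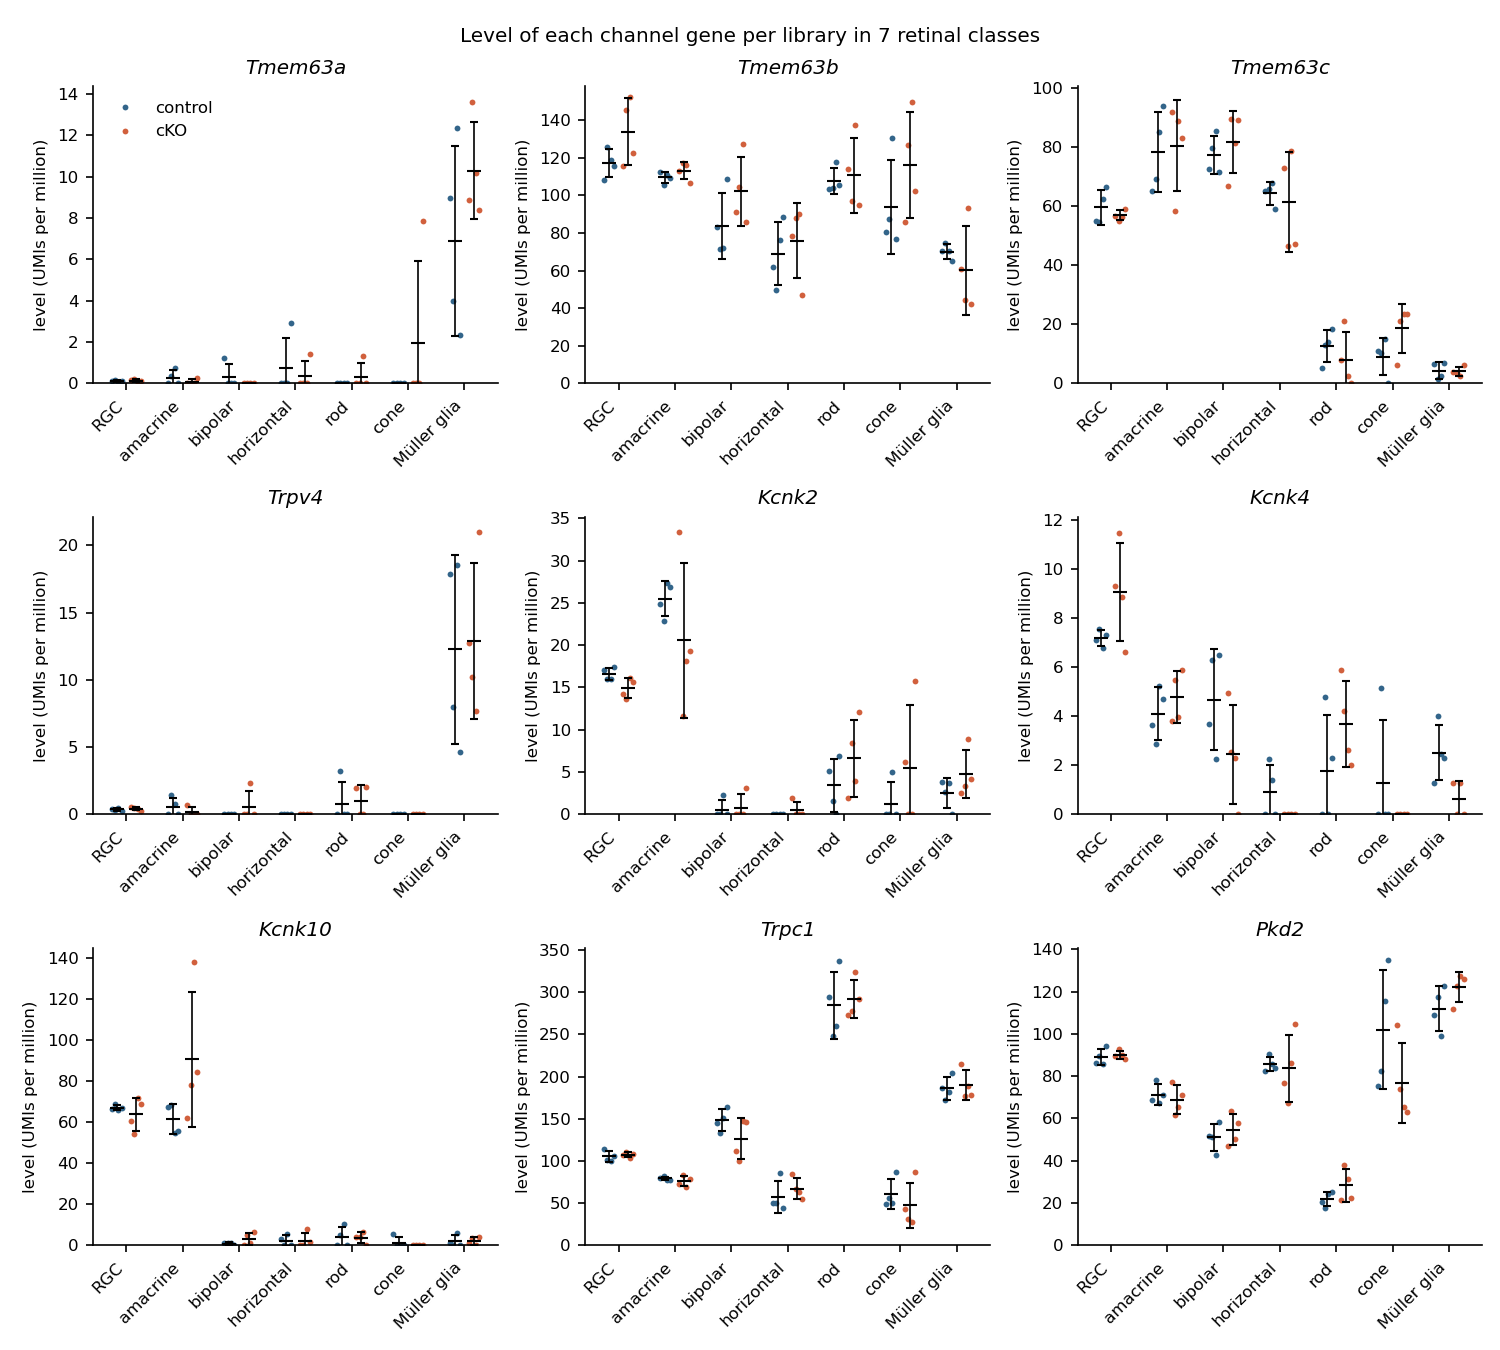
Level of each channel gene (y axis, UMIs per 1000000 of the summed class) in 7 retinal classes (x axis); points are libraries, control in blue and cKO in orange, and bars are the mean and SD of 4 libraries. Tmem63a and Trpv4 stand out in Müller glia (8.59 and 12.6 CPM over all 8 libraries), Trpc1 in rods (288 CPM), Kcnk2 and Kcnk10 in RGCs and amacrine cells.

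Each class was compared with RGCs in a fit over summed counts with the library as a block (edgeR, quasi-likelihood F test with Benjamini-Hochberg adjustment over 12153 genes). Calls needed a size of over 0.5 on the log2 scale, in either direction, beside an adjusted p under 0.05, and 6 of the 9 members passed the filter on low counts; Tmem63a, Trpv4 and Kcnk4 did not. In amacrine cells 1 of 6 members was called against 25.6% of all genes tested, 13.1% higher and 12.5% lower. That member was Trpc1, lower by a log2 fold change of -0.53 (SE 0.0620, adjusted p = 1.31e-11). A stricter gate gave -0.49, just inside the limit on size. Kcnk2 (0.48) and Tmem63c (0.38) were higher and Pkd2 (-0.42) and Tmem63b (-0.25) lower at adjusted p under the threshold but within the size limit.

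In bipolar cells 3 of 6 members were called, all lower, against 47.8% of all genes, 22.9% higher and 24.9% lower. They were Kcnk10 (log2 fold change -5.34, SE 0.295, adjusted p = 1.69e-26), Kcnk2 (-4.56, SE 0.426, adjusted p = 1.84e-15) and Pkd2 (-0.83, SE 0.0802, adjusted p = 6.9e-15). Tmem63b stood at -0.50, at the limit, and was called lower in 11 of 18 alternatives. In horizontal cells 4 of 6 were called lower against 39.3% of all genes, 16.5% higher and 22.8% lower, among them Kcnk10 at -4.75 (SE 0.356, adjusted p = 1.5e-19), Tmem63b at -0.60 (SE 0.0983) and Trpc1 at -0.57 (SE 0.104). Kcnk2 was the fourth, from the single UMI given above.

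In rods all 6 tested members were called, against 61.9% of all genes, 28.8% higher and 33.1% lower. Trpc1 was higher by a log2 fold change of 1.13 (SE 0.0710, adjusted p = 1.27e-23), and it was 1.11 without cKO replicate 11, the library with the raised rod panel. The other 5 were lower, Kcnk10 at -4.43 (SE 0.294), Tmem63c at -3.02 (SE 0.200, adjusted p = 1.76e-22), Pkd2 at -2.18 (SE 0.117, adjusted p = 1.89e-27), Kcnk2 at -2.04 (SE 0.319) and Tmem63b at -0.51 (SE 0.0875). Tmem63b fell inside the size limit with a stricter gate (-0.43) and with no library block (-0.50).

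In cones 5 of 6 members were lower against 55% of all genes called either way, 23% higher and 32% lower, where the median of all genes tested was itself -0.15. They were Kcnk10, Kcnk2 (-2.67, SE 0.578), Tmem63c (-2.38, SE 0.280, adjusted p = 1.58e-11), Trpc1 (-1.38, SE 0.166, adjusted p = 3.3e-11) and Tmem63b (-0.58, SE 0.129). Pkd2 was at -0.35 and not called. In Müller glia 5 of 6 were called against 53.9% of all genes, 25.9% higher and 28% lower. Trpc1 was higher at 0.72 (SE 0.0708, adjusted p = 1.16e-14), while Kcnk10 (-5.17, SE 0.303), Tmem63c (-3.99, SE 0.216, adjusted p = 3.03e-27), Kcnk2 (-2.13, SE 0.292) and Tmem63b (-0.99, SE 0.0881, adjusted p = 1.91e-16) were lower. Pkd2 was 0.27 higher and within the size limit.

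**Figure D2:**
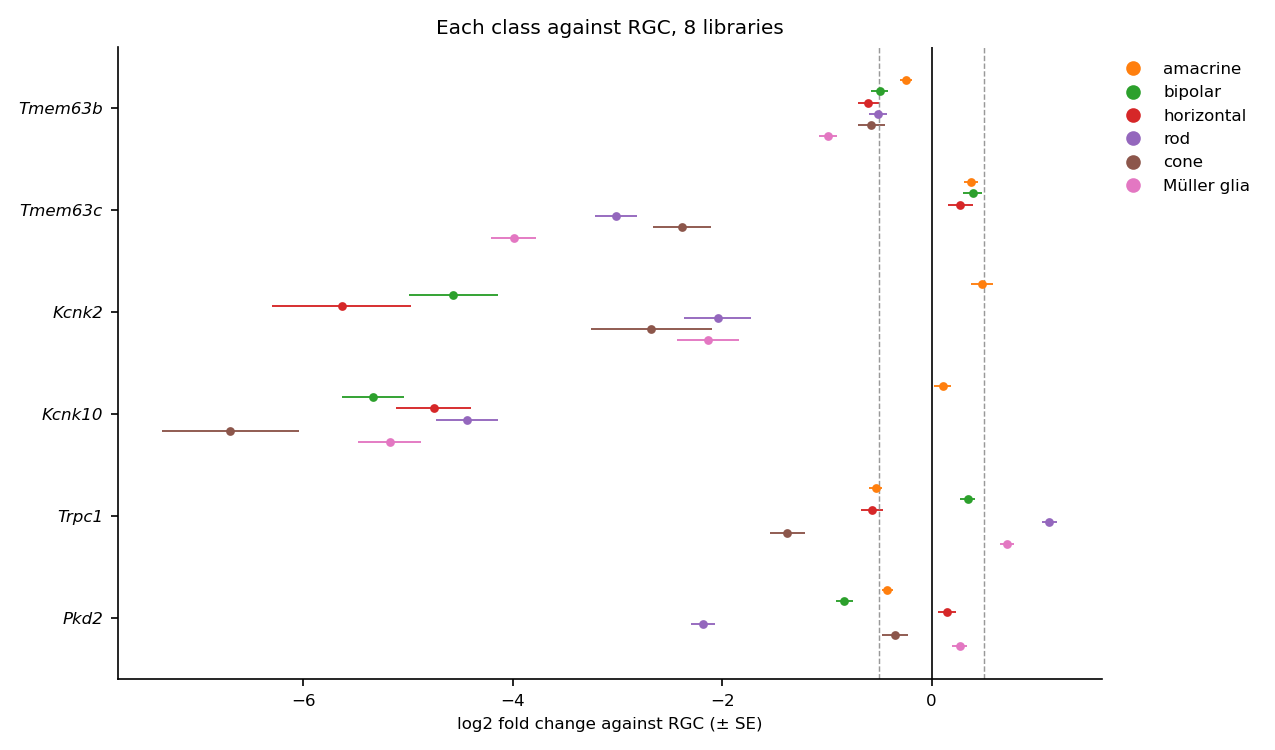
Log2 fold change of each tested member in a class against RGCs (x axis; points with bars for the SE, 8 libraries), coloured by class; dashed lines mark -0.5 and 0.5. Kcnk10 and Kcnk2 lie far below RGCs in every class other than amacrine cells, and Trpc1 lies above RGCs in rods (1.13) and Müller glia (0.72).

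Tmem63a, Trpv4 and Kcnk4 entered the test once no filter on low counts was applied. In Müller glia against RGCs, Tmem63a was then higher by 5.57 on the log2 scale (SE 0.429, edgeR adjusted p = 2.07e-37) and Trpv4 by 4.58 (SE 0.323, edgeR adjusted p = 1.22e-44). Kcnk4 was lower than in RGCs in all 6 classes in that fit, by log2 fold changes of -0.97 in amacrine cells to -3.86 in cones, the latter from 1 UMI.

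Within classes, nuclei were divided by subtype markers. Both among RGC and among amacrine subtypes, the largest log2 fold change of a tested member was that of Kcnk2. Starburst amacrine cells, the cholinergic interneurons of motion detection, had Kcnk2 at 236, 264, 309 and 321 CPM in control replicates 1 to 4 and 281, 362, 283 and 233 CPM in cKO replicates 10 to 13, a mean of 286 ± 43.7 CPM (SD, n = 8). GABAergic amacrine cells had 6.73 ± 4.33 CPM and glycinergic ones 1.94 ± 4.32 CPM (4 UMIs, and 0.468 CPM without control replicate 4), so that no library of either reached the lowest starburst library. The 203 starburst nuclei were 6.57% of amacrine nuclei and gave 354 of 464 amacrine Kcnk2 UMIs, 76.3%. Against the average of the other amacrine subtypes the log2 fold change was 6.21 (SE 0.246, edgeR adjusted p = 9.65e-18), and it was 5.82 to 6.92 over the alternatives.

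Of the RGC subtypes given here, Kcnk2 was highest in intrinsically photosensitive RGCs (ipRGCs, gated by Opn4 and Eomes), at 179, 180, 132 and 152 CPM in control replicates 1 to 4 and 118, 147, 181 and 68.3 CPM in cKO replicates 10 to 13. The mean was 144 ± 38.7 CPM (SD, n = 8) against 12.4 ± 1.85 CPM in RGCs outside all subtype gates. The 335 ipRGC nuclei were 1.40% of RGC nuclei and gave 13.8% of RGC Kcnk2 UMIs. F-RGCs (14.4 CPM) and T-RGCs (13.1 CPM) were close to the ungated RGCs. Direction-selective RGCs (DSGCs, gated by Cartpt) had 3.45 CPM, alpha-type RGCs (Spp1) 2.83 CPM and Chrm2 RGCs 2.38 CPM, and 1 UMI was found in all Zic1 RGCs.

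The RGC subtypes given here were tested against the ungated RGCs over 12546 genes, 7 of them members. In ipRGCs 2 of 7 members were called against 15.9% of all genes, Kcnk2 at 3.54 on the log2 scale (SE 0.133, edgeR adjusted p = 3.68e-40) and Kcnk10 at 1.23 (SE 0.109, edgeR adjusted p = 7.26e-17). In alpha-type RGCs, which have large somata and thick axons, 3 of 7 were called against 22.2%. These were Kcnk10 at 0.79 (SE 0.0821, edgeR adjusted p = 4.55e-14), Tmem63c at -0.88 (SE 0.0828, edgeR adjusted p = 6.41e-16) and Kcnk2 at -2.01 (SE 0.299, edgeR adjusted p = 1.53e-08). Tmem63c was at 28.9 to 34.8 CPM in the alpha-type sums and at 54.4 to 67.6 CPM in the ungated ones, without overlap.

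In DSGCs 2 of 7 members were called against 9.37%, Kcnk2 at -1.83 (SE 0.197, edgeR adjusted p = 3.49e-13) and Kcnk4 at -0.57 (SE 0.17, edgeR adjusted p = 0.00684). In control libraries alone the Kcnk4 call was lost, at -0.34 (edgeR adjusted p = 0.433). Kcnk2 was the 1 member called in Chrm2 RGCs (against 13.1%), at -2.09 (SE 0.275), and in Zic1 RGCs (against 9.45%), from a single UMI. Kcnk10 was higher in DSGCs (0.38), Chrm2 RGCs (0.43) and Zic1 RGCs (0.47), where it passed the adjusted threshold but lay within the size limit. In F-RGCs and T-RGCs 0 of 7 were called, against 9.86% and 7.31% of all genes (edgeR), and 5 and 3 members passed an unadjusted p under 0.05, as did 4209 and 3006 of the 12546 genes. Tmem63b (-0.17), Kcnk4 (0.42) and Trpc1 (-0.12) in F-RGCs and Kcnk10 (-0.42) in T-RGCs passed the adjusted threshold but lay within the size limit. Kcnk10 in T-RGCs was at 37.7 ± 8.38 CPM against 56.0 ± 5.50 CPM in ungated RGCs. Trpc1 in ipRGCs (139 ± 22.7 CPM) was 0.38 higher on the log2 scale, and Tmem63b in alpha-type RGCs (159 ± 29.2 CPM) was 0.34 higher, both inside the limit.

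Amacrine subtypes were compared with each other over 5848 genes, 6 of them members, and 3 were called in each subtype against 29.8% of genes in starburst, 29.4% in glycinergic and 29.6% in GABAergic cells. Each subtype was set against the average of the other subtypes on the log2 scale. A gene's log2 fold changes over the subtypes therefore cancel, and its calls in different subtypes are not separate results. Tmem63c was highest in glycinergic cells, at 152 ± 32.6 CPM against 66.5 ± 13.2 CPM in GABAergic cells (SD, n = 8), with log2 fold changes of 0.95 (SE 0.117, edgeR adjusted p = 1.3e-07) and -0.84 (SE 0.107, edgeR adjusted p = 2.16e-07) against the other subtypes. Kcnk10 was at 73.6 ± 18.9 CPM in GABAergic cells and 9.32 ± 15.2 CPM in glycinergic cells. The glycinergic level came from 12 UMIs, with 3 control libraries at 0 and 45.5 CPM in cKO replicate 11, and was 4.15 CPM without that library. The tests gave log2 fold changes of 1.92 (SE 0.356, edgeR adjusted p = 5.9e-05) in GABAergic and -3.42 (SE 0.563, edgeR adjusted p = 1.37e-05) in glycinergic cells, the latter -4.15 (edgeR adjusted p = 3.09e-06) without cKO replicate 11. Kcnk2 was lower in glycinergic cells at -4.26 (SE 0.513, edgeR adjusted p = 8.81e-08), and at -5.79 (edgeR adjusted p = 2.22e-08) without control replicate 4.

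Some amacrine calls were lost when 1 library was left out. Kcnk10 in starburst cells was at 123, 60.9, 54.8 and 27.9 CPM in control replicates 1 to 4 and at 13.4, 0, 0 and 171 CPM in cKO replicates 10 to 13. The starburst mean of 56.4 CPM lay between the 73.6 CPM of GABAergic and the 9.32 CPM of glycinergic cells, so starburst cells were not the highest. Against the average of the others, the log2 fold change of Kcnk10 was 1.49 (edgeR adjusted p = 0.0166). It became 0.98 (edgeR adjusted p = 0.198) without cKO replicate 13 and 1.34 (edgeR adjusted p = 0.0502) without control replicate 2. Kcnk2 in GABAergic cells, at 6.73 CPM, lay between the 286 CPM of starburst and the 1.94 CPM of glycinergic cells. Its log2 fold change there, -1.95 (edgeR adjusted p = 0.0179), became -1.12 (edgeR adjusted p = 0.491) without control replicate 4 and -1.74 (edgeR adjusted p = 0.0588) without control replicate 3. Pkd2 in starburst cells, at 0.58 (edgeR adjusted p = 0.00896), fell inside the size limit without control replicate 3 (0.48) or cKO replicate 12 (0.47), and was 0.49 (edgeR adjusted p = 0.179) in control libraries alone.

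Among bipolar cells Trpc1 was highest in rod bipolar cells, which carry the rod signal onwards. Rod bipolar cells had 259, 213, 237 and 213 CPM in control replicates 1 to 4 and 159, 169, 243 and 213 CPM in cKO replicates 10 to 13, a mean of 213 ± 34.7 CPM (SD, n = 8). ON cone bipolar cells had 69.9 ± 17.4 CPM and OFF cone bipolar cells 82.8 ± 51.7 CPM. Every rod bipolar library exceeded every ON cone bipolar library, the highest of which was at 106 CPM. Rod bipolar nuclei were 38.4% of bipolar nuclei and gave 502 of 834 bipolar Trpc1 UMIs, 60.2%. Of 4 members tested among 4747 genes, Trpc1 was the 1 called in each subtype, against 29.8%, 19% and 20.6% of genes. Each subtype was again set against the average of the others, so its log2 fold changes cancel over the subtypes. The lower calls in cone bipolar cells are thus not separate from the higher call in rod bipolar cells. Trpc1 was higher in rod bipolar cells at 1.57 (SE 0.140, edgeR adjusted p = 7.55e-11) and lower in ON cone bipolar cells at -1.0 (SE 0.172, edgeR adjusted p = 2.99e-05). In OFF cone bipolar cells its -0.57 (SE 0.197, edgeR adjusted p = 0.0344) lost the call without any of 6 of the 8 libraries (control replicates 1 and 2 and each cKO replicate), at edgeR adjusted p = 0.0594 to 0.114.

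**Figure D3:**
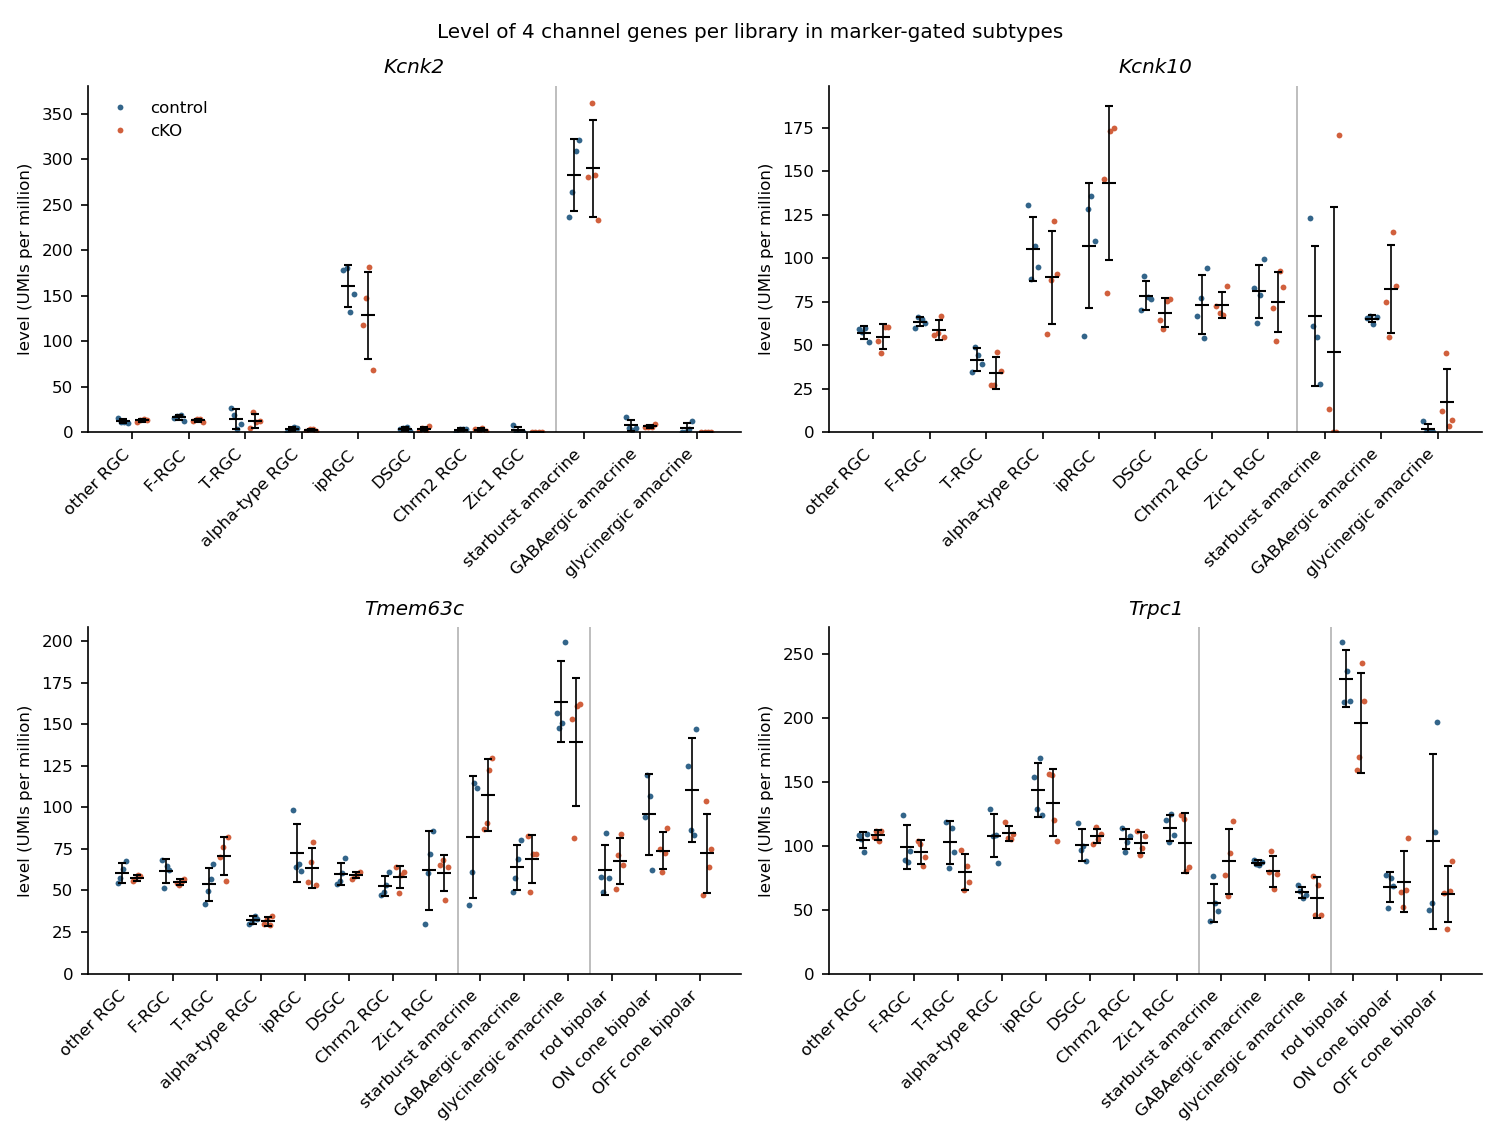
Levels of Kcnk2, Kcnk10, Tmem63c and Trpc1 (y axis, UMIs per 1000000) in marker-gated subtypes (x axis); points are libraries, control in blue and cKO in orange, bars are the mean and SD of 4 libraries, and vertical lines part RGC, amacrine and bipolar subtypes. Kcnk2 is highest in starburst amacrine cells (286 CPM) and ipRGCs (144 CPM), and Trpc1 in rod bipolar cells (213 CPM).

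The genotype comparison asked whether these genes differed between cKO and control retinae. Whether Piezo2 was deleted in these nuclei is not known from the counts, as given above. In each class 0 genes of any kind were called (0% of 18367 genes in RGCs, 13208 in amacrine, 9362 in bipolar, 6429 in horizontal, 7671 in rod, 3697 in cone and 9650 in Müller glia sums), and so 0 members of 7, 7, 4, 4, 3, 2 and 3 tested (edgeR quasi-likelihood F test with Benjamini-Hochberg adjustment). At an unadjusted p under 0.05, 625, 603, 274, 232, 244, 126 and 306 genes passed in the same order; 1 of them was a member, Kcnk10 in amacrine cells. DESeq2 called 4 genes in RGCs, 3 in amacrine cells and 0 in the other 5 classes, none of them a member.

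Among members that passed the filter on low counts in the class sums, the largest log2 difference was that of Kcnk10 in amacrine cells, at 67.4, 68.5, 54.7 and 55.6 CPM in control replicates 1 to 4 and 61.9, 78.1, 138 and 84.3 CPM in cKO replicates 10 to 13. The groups overlapped (two-sided exact permutation test, p = 0.0857), and the log2 fold change was 0.52 (SE 0.199, unadjusted p = 0.0195, edgeR adjusted p = 1). Without cKO replicate 12 it was 0.24. It passed with no filter on low counts, at 0.53 (edgeR adjusted p = 0.0133), the 1 member call in any genotype fit. The range of that adjusted p over the other alternatives was 0.353 to 1.

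In RGCs, Kcnk2 was at 17.0, 16.0, 16.0 and 17.4 CPM in control replicates 1 to 4 and 14.2, 13.6, 16.2 and 15.7 CPM in cKO replicates 10 to 13, a difference of -0.21 on the log2 scale (SE 0.0985, edgeR adjusted p = 0.989; two-sided exact permutation test, p = 0.0857). The other 6 members tested in RGCs lay between -0.13 for Tmem63c and 0.26 for Kcnk4. Their SEs were 0.0562 to 0.136. Trpv4 in Müller glia was at 12.3 ± 7.01 CPM in the control group and at 12.9 ± 5.80 CPM in the cKO group (SD, n = 4 each; exact permutation test, p = 0.914). Over 63 exact permutation tests of members in classes, the groups failed to overlap for 1, Kcnk4 in Müller glia with 9 UMIs. It was at 1.28 to 4.00 CPM in controls and 0 to 1.28 CPM in cKO (exact permutation test, p = 0.0286, the smallest that 4 against 4 allow, adjusted p = 0.871). Both values of 1.28 CPM stood for 1 UMI in sums of nearly equal depth, so the groups met at that count. The share of all genes whose groups failed to overlap was not counted.

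**Figure D4:**
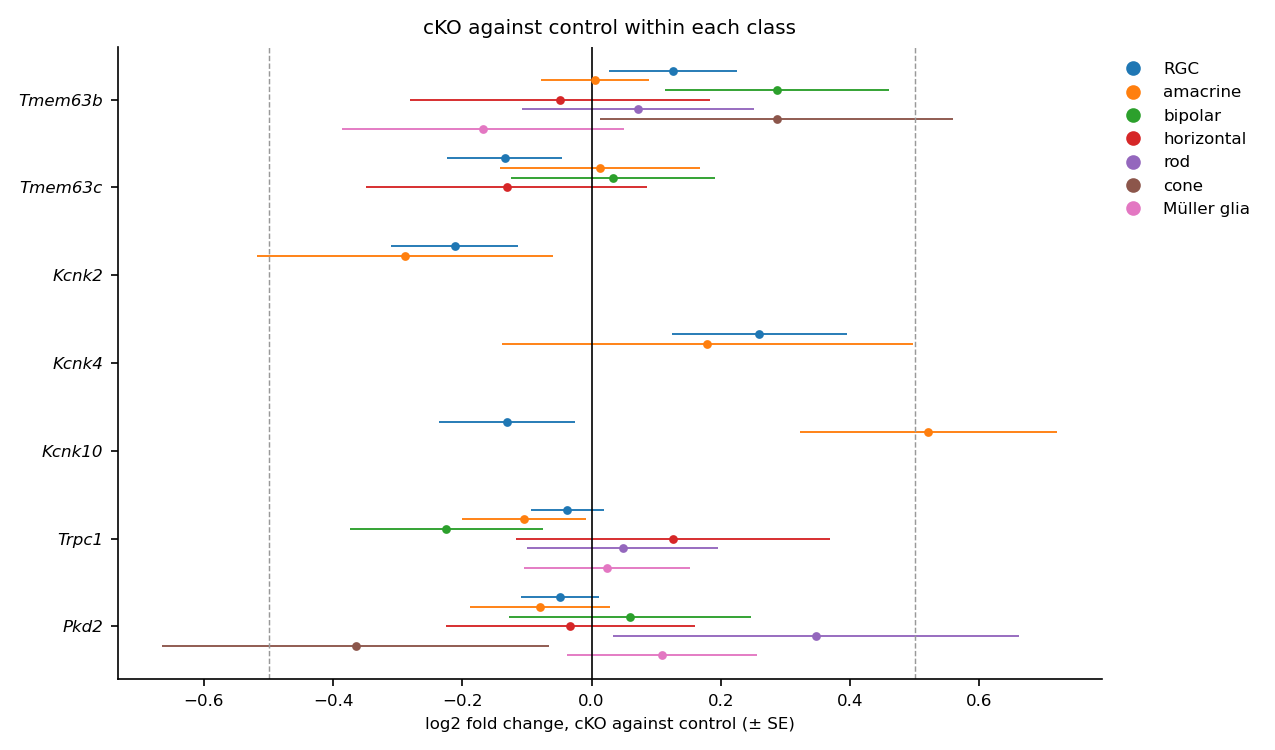
Log2 fold change of each tested member in cKO against control libraries (x axis; points with bars for the SE, 4 libraries a group), coloured by class; dashed lines mark -0.5 and 0.5. Nearly all points lie between the dashed lines, with Kcnk10 in amacrine cells at 0.52.

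Other channels and modulators linked to mechanical signalling were counted in 9 lists of 89 genes, of which 88 were in the files and 43 were tested against RGCs. Without Aqp4, a gate gene of Müller glia, 42 remained. In amacrine cells 12 of these were higher and 10 lower (28.6% and 23.8%, against 13.1% and 12.5% of all genes tested), and in bipolar cells 11 and 18 (26.2% and 42.9%, against 22.9% and 24.9%). In horizontal cells 4 were higher and 19 lower (9.52% and 45.2%, against 16.5% and 22.8%). In rods 9 were higher and 22 lower (21.4% and 52.4%, against 28.8% and 33.1%), in cones 10 and 22 (23.8% and 52.4%, against 23% and 32%), and in Müller glia 15 and 16 (35.7% and 38.1%, against 25.9% and 28%).

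Of 11 tested TRP channels outside the 9 members, 9 were lower and 0 higher than in RGCs both in rods and in cones (81.8% lower, against 33.1% and 32% of all genes). In Müller glia and in horizontal cells 8 were lower and 1 higher in each (72.7% lower, against 28% and 22.8% of all genes). In bipolar cells 7 were lower and 2 higher (63.6% and 18.2%, against 24.9% and 22.9%), and in amacrine cells 3 were lower and 3 higher (27.3% each, against 12.5% and 13.1%). A gene high in RGCs alone could pass the filter on low counts through RGCs, and could then only be lower elsewhere. The TRP counts, and those over all lists, are therefore partly set by that filter. Of the 10 YAP and TAZ genes listed, both parts and targets of that pathway, 7 passed the filter on low counts. All 7 were higher in Müller glia, where 25.9% of all genes were. Their median log2 fold change there was 3.54, against -0.03 over all genes. A gene scarce in RGCs could pass that filter only through a class where it was high. These counts are therefore partly set by the filter. In rods 5 of the 7 were higher (71.4% against 28.8% of all genes; median 1.25), in cones 4 (57.1% against 23%) and in amacrine cells 3 (42.9% against 13.1%). In bipolar and horizontal cells 2 were higher (28.6% against 22.9% and 16.5%), near the share of all genes in bipolar cells. In amacrine cells 3 were lower, and in rods, cones, bipolar and horizontal cells 1 was. No gene of the 12 TMC channels and partners passed the filter on low counts in the fits against RGCs.

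Single genes of the lists differed by wide margins. Trpc4, a canonical TRP channel, was at 181 ± 17.2 CPM in amacrine cells against 6.20 ± 1.77 CPM in RGCs (SD, n = 8; log2 fold change 4.82), and Kcnk13, a relative of the TREK channels, at 19.4 ± 2.77 against 0.775 ± 0.128 CPM (4.50). Asic4, of the acid-sensing channel family, was at 81.5 ± 12.9 CPM in bipolar cells and 126 ± 27.6 CPM in cones against 1.08 ± 0.413 CPM in RGCs, with log2 fold changes of 6.19 and 6.55. Stom, a membrane protein that modulates acid-sensing channels, was at 169 ± 17.0 CPM in bipolar cells against 3.06 ± 0.592 CPM (5.74).

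Of those higher in RGCs, Kcnk9 (TASK-3) was at 37.6 ± 3.53 CPM and Trpc5 at 34.9 ± 4.85 CPM, against 3 UMIs of each in all horizontal cells. Trpc6 was at 40.0 ± 3.00 CPM in RGCs and 2.50 ± 2.87 CPM in rods (log2 fold change -4.45), whereas Wwtr1, which encodes TAZ, was at 32.5 ± 10.4 CPM in rods and 1.55 ± 0.396 CPM in RGCs (4.19). Trpc7 was at 11.1 ± 2.21 CPM in RGCs and at 0 UMIs in cones. RGCs, at 11.0 CPM with all libraries added together, stood 4.70-fold above a floor of 3 UMIs over all cones. Ano1, a calcium-activated chloride channel, was at 130 ± 32.4 CPM in Müller glia against 0.938 ± 0.373 CPM (7.04), and Aqp4, a water channel, at 477 ± 91.6 against 4.10 ± 1.21 CPM; Aqp4 helped to gate that class and is no finding in it. In the genotype comparison 0 genes of the lists were called in any class (edgeR), and 3 of 63, 5 of 44 and 1 of 23 list genes tested passed an unadjusted p under 0.05 in RGCs, amacrine and bipolar cells, where 625 of 18367, 603 of 13208 and 274 of 9362 of all genes did. In horizontal cells 0 of 14 did, in rods 0 of 14, in cones 0 of 9 and in Müller glia 0 of 29.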

How the data were processed

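Nuclei of 8 retinal libraries were sequenced with a 10x 3′ kit, 4 from control and 4 from cKO mice, and each library pooled 6 retinae. The files deposited hold raw UMI counts of each gene in all observed barcodes, made by the authors, per the labels, with Cell Ranger 7.0.0 and GRCm39 (the file headers name another Cell Ranger version); no free RNA had been removed and no nuclei called. Groups came from the sample labels. The authors' later steps, such as removal of free RNA and cell annotation, are not in these counts and were not rebuilt.

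Barcodes with at least 1000 UMIs were taken as nuclei and gated by marker panels. A gate needed at least 3 panel UMIs from at least 2 genes and a panel rate set per class. Nuclei passing more than 1 gate were left out, except that those passing the horizontal and amacrine gates alone were kept as horizontal. Flt1 was left out of the endothelial gate because it was seen in these data to be a leading gene of Müller glia nuclei. No doublet caller was run. UMIs were added up over the nuclei of a class in each library, a class entering with more than 10 nuclei, and levels are CPM. Sums were tested in R 4.3.3 with edgeR 4.0.16 (quasi-likelihood F test, TMM, filterByExpr, Benjamini-Hochberg adjustment) and, as an alternative, DESeq2 1.42.0. Class and subtype fits had the library as a block; genotype fits had genotype alone. Steps between classes and between genotypes were compared with exact permutation tests, and exact Poisson intervals were computed with scipy 1.17.1. Nothing in the labels says which animals a pool held, so p-values measure the spread between pools. Scripts were tested on simulated counts.

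The members and lists were chosen with earlier results of these data known. All members are named, and results that need items not reported here were left out; of the lists, up to 2 genes with the largest change per class among those called and at 10 CPM or more. Alternatives were another test, normalization, filter, barcode minimum, gate and free RNA, and each library left out. Others were added after the data were seen, namely another window of empty droplets, subtype fits without each library, and Müller glia without endothelial markers. Sequences and coordinates were read from GRCm39 and its GENCODE annotation.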

Additional observations from a re-analysis of the deposited data

Results flagged for a closer look

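Levels were compared within each group of 4 libraries, and in 9 of 226 groups the highest or lowest library lay far from the others by Dixon's criterion; chance alone flags about 1 in 20 groups, or 11.3 of 226.

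Of these, 3 were in classes. Tmem63b in rods was at 118 CPM in control replicate 3 and at 103 to 105 CPM in the other controls. Tmem63c in cones was at 6.14 CPM in cKO replicate 10 and at 21.1 to 23.6 CPM in the other cKO libraries. Trpc1 in horizontal cells was at 85.8 CPM in control replicate 3 and at 44.1 to 50.2 CPM in the other controls.

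The other 6 were in subtypes, which hold few nuclei in a library. In ipRGCs of control replicate 1, Tmem63c was at 98.5 CPM against 61.8 to 65.8 CPM, and Kcnk4 was at 18.5 CPM against 3.56 to 5.81 CPM, in the other controls. Tmem63c was at 44.2 CPM in Zic1 RGCs of cKO replicate 12 against 64.2 to 68.2 CPM, and at 81.9 CPM in glycinergic amacrine cells of cKO replicate 11 against 153 to 162 CPM, in the other cKO libraries. Kcnk10 in starburst amacrine cells was at 171 CPM in cKO replicate 13 against 0 to 13.4 CPM in the other cKO libraries. Pkd2 in rod bipolar cells was at 84.4 CPM in control replicate 4 against 38.9 to 40.9 CPM in the other controls.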

How the results depend on the processing

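No member's log2 fold change that was called turned its direction under any alternative. Over settings other than leaving out a library, members of the class fits kept their side of the threshold in 347 of 360 results by setting, those of the genotype fits in 175 of 176 and those of the subtype fits in 249 of 258. Those of them that touch a call named in the report are given there. Calls over all genes moved by more than 1.5 times as follows, and the cause was not tested unless named. In the genotype comparison, where 0 genes were called, DESeq2 called 4 in RGCs and 3 in amacrine cells. With no filter on low counts 63 were called in amacrine, 16 in bipolar, 22 in horizontal, 39 in rod, 17 in cone and 28 in Müller glia sums. A stricter gate gave 1 in amacrine, 2 in horizontal and 1 in cone sums. Leaving out 1 library gave 0 to 4 in amacrine (4 without control replicate 4), 0 to 2 in horizontal and in cone, 0 to 1 in rod and in Müller glia, and 0 in RGC and bipolar sums. Against RGCs, amacrine calls rose from 3113 to 5237 with DESeq2 and 6356 with no filter, bipolar calls from 5807 to 9416 with no filter, and Müller glia calls from 6548 to 9890 with DESeq2 and 11065 with no filter; more genes are tested with no filter. With at least 2000 UMIs, which leaves fewer rods, rod levels became 1.46 CPM for Tmem63a (from 0.164), 84.1 CPM for Tmem63b (from 109) and 18.5 CPM for Tmem63c (from 10.2). Kcnk4 in amacrine cells became 2.90 CPM with a stricter gate (from 4.45). No paired analysis was possible because the replicate numbers of control and cKO libraries do not overlap. Depth limits Tmem63a, Trpv4 and Kcnk4 outside their highest class, and subtypes with few nuclei.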

Other observations

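The genes whose level followed each member most closely were sought over the 56 sums of 7 classes and 8 libraries, by Pearson's r of log2(CPM + 1) among 13850 genes with at least 10 CPM in some class. The sums share libraries, depth and class make-up, so r is given as a description. Kcnk10 was followed by Gabra4 (r = 0.907), a GABA receptor subunit, and Rbfox1 (r = 0.901), a neuronal splicing factor. Kcnk2 was followed by Ppp1r14c (r = 0.820) and Kcnk4 by Gm46102 (r = 0.787) and Cntnap4 (r = 0.774). Tmem63c was followed by Tmem117 (r = 0.902) and Nalcn (r = 0.884), the sodium leak channel. Tmem63b was followed less closely, by Smpd3 and Cpne6 (r = 0.748 each). Trpc1 was followed by St3gal1 (r = 0.849) and Slc25a29 (r = 0.827), and Pkd2 by Bach2 (r = 0.824) and 4930578G10Rik (r = 0.821). Tmem63a, with 76 UMIs over all classes, and Trpv4, with 154, had under 200 and were left out.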
